A study of Brassica rapa subsp. rapa with 9 samples.

Results

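Probes named after kinases, phosphatases, calmodulin-binding proteins and GTPases were followed on arrays of turnip swollen hypocotyls (Brassica rapa subsp. rapa, the red cultivar Tsuda) exposed to UV-B, UV-A or blue light. A probe, the spotted cDNA of 1 clone, was counted as a member where its deposited name held the whole word kinase, or held phosphatase, calmodulin or GTPase. Clones of ARAC9, a small GTPase, and RALFL22, a signalling peptide, were added by name. Names with transcription factor, DNA binding, ubiquitin or proteasome and those of SEX1, AT1G07920, ATTPS1, TUA5 and TUB6 were left out, which took away 5 probes. This gave 139 of the 2507 probes in use, with 87 of the 1188 bracketed symbols on the array. All 139 passed the filter on dim probes, but so did every probe in use, so passing does not show that a member was detected.

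Each of the 9 arrays carried polyA RNA of 1 exposed sample, labelled with Cy3, and of 1 sample kept in darkness, labelled with Cy5, with 3 arrays per light. Exposure lasted 24 hours, and the RNA came from surface tissue peeled off at roughly 1-2 mm. The replicates were biological and each pooled several plants, per the design text. No group carries a transgene or mutation in the labels, the age of the plants is not given there, and the cells of the peeled layer are a mixture, so that fewer cells of a type and less RNA per cell cannot be told apart.

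In plants, receptor-like kinases at the cell surface bind peptides and cell wall fragments and pass the signal to cytoplasmic kinases, to small GTPases and to MAP kinase cascades. RALF peptides are ligands of FERONIA, a receptor kinase of cell growth in Arabidopsis, and calcium signals reach kinases of the CIPK family through calcium sensor proteins. Phosphatases of type 2C and 2A remove the phosphates again. Many members of the set are enzymes of metabolism instead, since pyruvate kinase or acid phosphatase carry the same words, and beta-tubulins enter because they hydrolyse GTP.

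All values below are log2(light/dark) on background-corrected and loess-normalized intensities, so a value of 1 means a light signal at 2 times the dark signal. A probe passed, and is said to have risen or fallen, at a Benjamini-Hochberg adjusted p under 0.05 over all 2507 probes in limma, a linear model that shares information on the spread between probes. SE is limma's standard error, from a spread shared by all lights and not from the arrays of 1 light alone, and n is 3 arrays per light. Dyes were not swapped, so dye bias of a probe stays in each value against dark and cancels between lights. Names are those of the best Arabidopsis match, and different probes of a symbol may be fragments of different turnip genes, so they were not averaged.

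The arrays were not equally bright or equally spread. The median over spots of foreground over background in the light channel lay between 2.47 (UV-B replicate 1) and 47.1 (UV-A replicate 2), and on UV-B replicate 1 the light channel was under 1.5 times background for 41 of the 139 members, against 18 on UV-B replicate 2 and at most 5 on any other array. The SD of the members' log2 values was 1.22 on blue replicate 3 and 0.51 and 0.64 on blue replicates 1 and 2, and 1.11, 0.84 and 1.38 on UV-B replicates 1, 2 and 3. On the 3 arrays numbered 3, at least 79.3% of the 135 spots without a clone were over 1.5 times background in the light channel, against at most 7.41% on the other 6 arrays. Of 14 probes of the light-responsive flavonoid genes CHS, F3H, DFR, LDOX and PAL1, 7 rose in UV-A, 6 in UV-B and none in blue light, where all 14 missed the threshold and 6 had an unadjusted p under 0.05 in limma. Over the whole array 632 of 2507 probes had such a p in blue light. Names of green tissue had 3 probes, of which 1 rose in blue light and none passed in UV-A or UV-B. Of the probes fixed as names of the storage organ's surface, all 3 of aquaporins (-2.09 to -1.57) and 24 of 48 of peroxidases fell in UV-B, with 3 peroxidase probes higher (range of all 48 -4.23 to 1.72), and their part in the members' changes was not tested.

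UV-B against darkness changed 37 of the 139 members (26.6%), of which 15 rose and 22 fell, where 24.7% of all probes passed, 10.8% higher and 13.9% lower. The share of members was thus close to that of the whole array. The members' median log2 was -0.02 and that of all probes 0.01. By symbol, 15 symbols had at least 1 probe that rose and 12 at least 1 that fell, and no symbol had both. Without the 4 probes of ARAC9 and RALFL22, 34 of 135 passed, 15 higher and 19 lower. In the authors' processed values 37 members passed too, 19 higher and 18 lower, where 30.4% of all probes passed, 16.7% higher and 13.7% lower. The count was 11 without UV-B replicate 1, 16 without UV-B replicate 3 and 22 without the 3 arrays numbered 3. Shares of all probes in these fits are not given here, so a loss of calls at the members cannot be told from one over the whole array.

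**Figure D1:**
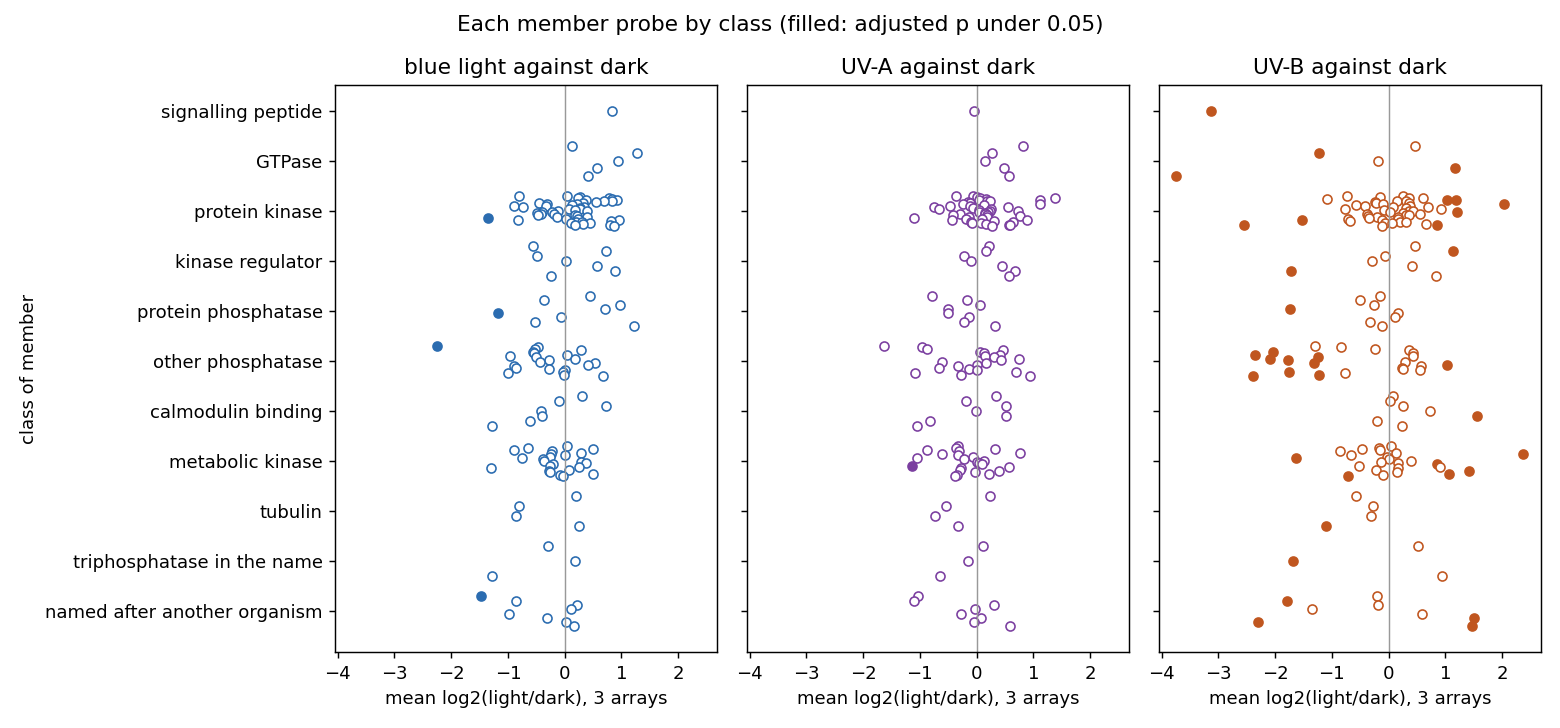
Mean log2(light/dark) over 3 arrays (x axis) of each of the 139 member probes, in rows by class, with 1 panel per light. Filled points passed at an adjusted p under 0.05 in limma: 4 in blue light, 1 in UV-A and 37 in UV-B, where the lowest value was that of ARAC9 (-3.74).

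RALFL22 is a peptide of the RALF family, and its only probe (2530) had log2 values of -3.21, -2.51 and -3.66 on the 3 UV-B arrays, 0.77, 0.17 and 1.54 in blue light and -0.10, -1.05 and 0.99 in UV-A. The UV-B arrays did not overlap with those of the other lights. The mean was -3.13 ± 0.40 (SE), 8.73-fold lower than in darkness, with the light channel under 1.5 times background on 1 of the 3 UV-B arrays. Since this gene and ARAC9 were added to the set by name with their UV-B values known, these are given as a description.

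ARAC9 is a small GTPase, a molecular switch of signalling. Its probe 2144 stood at -3.15, -3.16 and -4.90 in UV-B, at 0.75, -0.29 and 0.77 in blue light and at 0.32, -0.16 and 1.54 in UV-A. Only the UV-B arrays were low, with a mean of -3.74 ± 0.42 (SE), 13.3-fold lower than in darkness, and the light signal was saturated on 1 blue and 1 UV-A array. Of the other probes of ARAC9, 509 was lower in UV-B too, by less (mean -1.23), and was among the members counted as fallen. It had -0.41, -1.19 and -2.10 in UV-B and 1.91, 1.98 and -0.08 in blue light, and probe 1131 had 0.03, -1.22 and 0.62 in UV-B.

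AT3G51550, which is FERONIA in Arabidopsis, a receptor kinase of cell growth that binds RALF peptides, was not added by name, and its brighter probe fell in UV-B. Probe 2725 had -2.15, -2.89 and -2.58 on the UV-B arrays, 0.08, 1.12 and 1.21 in blue light and 0.08, 0.83 and 0.86 in UV-A. No UV-B array overlapped with an array of the other lights. It was 5.81-fold lower in UV-B than in darkness (-2.54 ± 0.30 SE, adjusted p = 0.000184 in limma). The other probe of AT3G51550 (477) had 0.33, -0.75 and -0.33 in UV-B and did not pass.

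**Figure D2:**
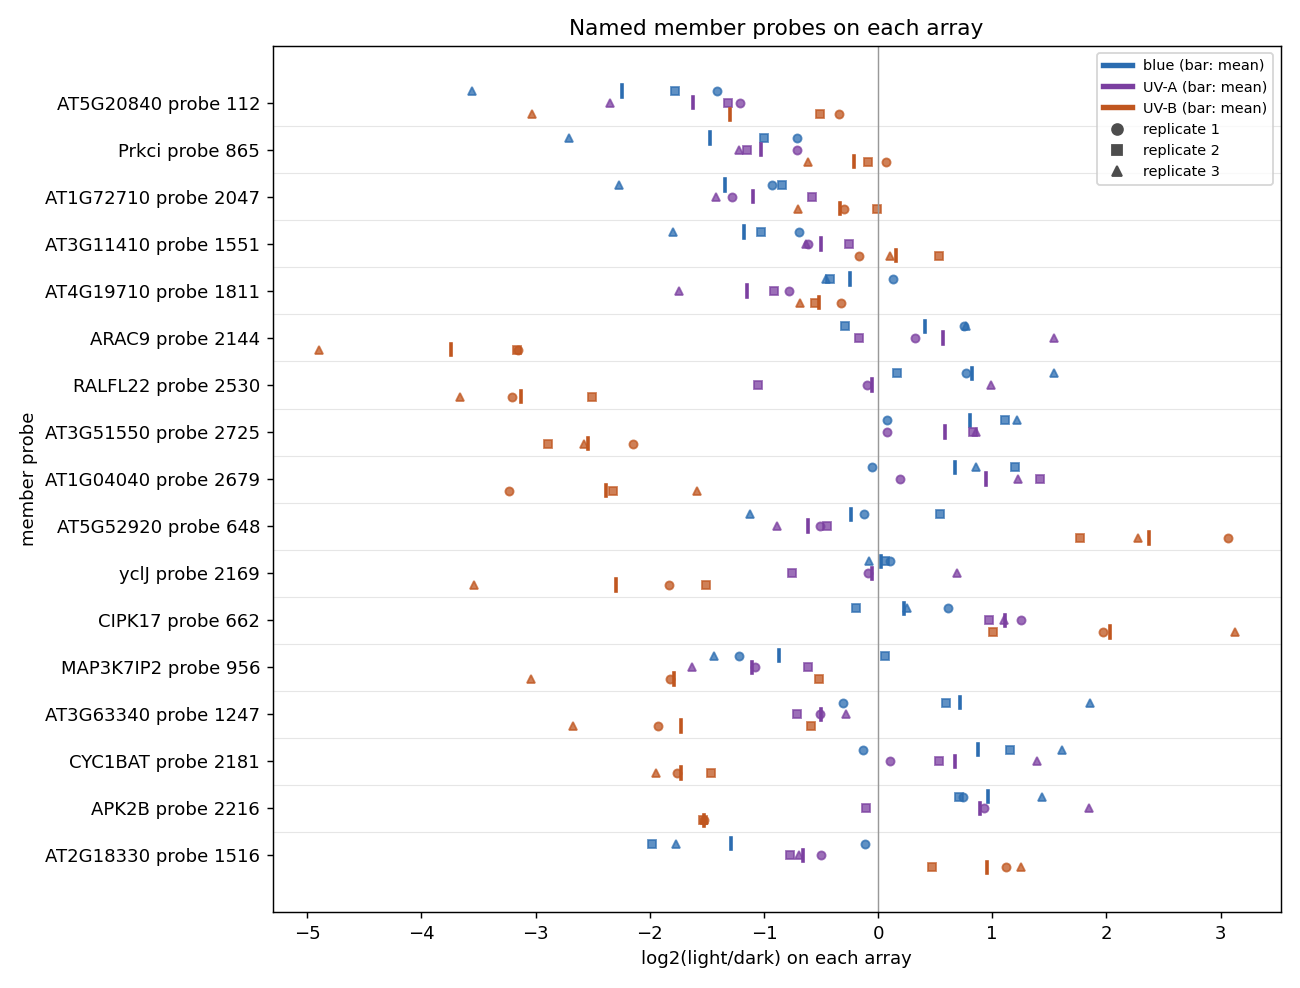
Log2(light/dark) on each array (x axis) for the 17 member probes with the largest calls in any comparison, with symbols for replicates, colours for lights and bars for the means. RALFL22, ARAC9 probe 2144 and AT3G51550 probe 2725 lie at -2.15 or lower on all UV-B arrays and at -1.05 or higher on every array of the other lights.

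Among the other protein kinases, 5 probes rose and 1 fell in UV-B beside AT3G51550. With it, 7 of the 50 protein kinase probes passed (14%, against 24.7% of all probes). CIPK17, a kinase activated by calcium sensors of the CBL family, had 1.97, 1.01 and 3.12 in UV-B, 1.25, 0.98 and 1.10 in UV-A and 0.62, -0.19 and 0.25 in blue light. All UV-B and UV-A arrays were positive, and its single probe rose 4.09-fold in UV-B (2.03 ± 0.35 SE, adjusted p = 0.00186). In UV-A it had 1.11 ± 0.35 and did not pass (adjusted p = 0.112, or 0.0371 with the replicate number as a block). CIPK2 and CIPK6, of the same family, had 0.02 and -0.06 in UV-B and did not pass.

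APK1B and APK2B are cytoplasmic kinases related to receptor kinases, and in UV-B a probe of the first rose while 1 of 3 probes of the second fell. APK1B had 1.31, 0.52 and 1.73 on the UV-B arrays and rose by 1.19 ± 0.31 (adjusted p = 0.0161), with positive values on all 9 arrays. In blue light and UV-A it had 0.92 and 1.11, which passed only with the block (adjusted p = 0.0238 and 0.0131). Probe 2216 of APK2B had -1.52, -1.54 and -1.53 in UV-B, 0.75, 0.71 and 1.43 in blue light and 0.93, -0.10 and 1.85 in UV-A. It fell by 1.53 ± 0.34 (log2, adjusted p = 0.00686), and its other probes, 814 and 1363, had 0.08 and 0.44 and did not pass. At probe 2216 the light channel was under 1.5 times background on 1 of the 3 UV-B arrays.

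The kinases AT5G54380, AT3G14840 and AT5G37790 rose as well. AT5G54380, THESEUS1 in Arabidopsis, which senses cell wall integrity and is of the same family as FERONIA, had 1.54, 1.00 and 0.56 in UV-B and rose by 1.04 ± 0.29 (adjusted p = 0.0227). AT3G14840, annotated as a protein kinase, had 2.00, 0.23 and 1.37 and rose by 1.20 ± 0.37 (adjusted p = 0.0347). AT5G37790, annotated likewise, had 0.86, 1.01 and 0.67 and rose by 0.85 ± 0.28 (adjusted p = 0.0471).

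MAP kinase genes did not pass in any light. Of the cascade, MEKK1 stands at the top, ATMKK9 in the middle, and ATMPK3, a MAP kinase of defence, ATMPK17 and ATMPK19 at the end. The 3 probes of ATMPK3 had -0.73, -0.76 and -0.20 in UV-B, and the first of them passed with the block (probe 75, adjusted p = 0.100 without and 0.0426 with it). ATMKK9 had -1.25, -1.67 and -0.34 in UV-B (mean -1.09, adjusted p = 0.213, or 0.0175 with the block), and MEKK1 0.26, ATMPK17 0.20 and ATMPK19 -0.39 as means. PHOT1, the blue light receptor kinase, had -0.20, -0.70 and -0.46 in blue light, negative on every array, with a mean of -0.45 ± 0.32 (adjusted p = 0.392), and 0.37 in UV-B.

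Of the 38 protein kinase symbols, 29 passed in none of the 6 comparisons, and their 34 probes had means between -1.09 and 0.92 in UV-B, -0.89 and 0.86 in blue light, and -0.67 and 1.39 in UV-A. They include AKIN10, the catalytic subunit of the energy-sensing kinase SnRK1 (-0.41 in UV-B), BIN2, a repressor of brassinosteroid signalling (0.55), ATSERK4, a co-receptor (0.37), AT2G39660, the immune kinase BIK1 in Arabidopsis (0.26), and ATPK1, a ribosomal S6 kinase (-0.10). The highest value in UV-A, 1.39 ± 0.39, was that of AT3G08680 with 1.41, 0.93 and 1.84, which passed only with the block (adjusted p = 0.0778 without and 0.0203 with it). Further symbols of this kind were AT1G29720, AT1G48490, AT1G56140, AT2G07180, AT2G31800, AT2G40730, AT3G17850, AT3G47570, AT4G00720, AT4G23150, AT4G31170, AT5G22050, AT5G58950, AT5G63370 and SPK-2-2. Of these, AT5G63370 (0.70), AT1G56140 (-0.72) and SPK-2-2 (0.92) passed in UV-B with the block (adjusted p = 0.0455, 0.0407 and 0.0348).

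Regulators of kinases held a fall of a cyclin probe. CYC1BAT is a B-type cyclin, a partner of the cyclin-dependent kinases that drive cell division. Its probe 2181 had -1.76, -1.46 and -1.95 in UV-B against -0.13, 1.16 and 1.61 in blue light and 0.11, 0.53 and 1.39 in UV-A, with no overlap of UV-B and the other lights. It fell by 1.72 ± 0.35 (log2, adjusted p = 0.00463). The 3 other CYC1BAT probes had 0.46, -0.06 and 0.41 in UV-B and did not pass. CKB2, a regulatory subunit of casein kinase 2, rose by 1.14 ± 0.36 at probe 991 (1.15, 0.75 and 1.5; adjusted p = 0.0366), while its probe 1915 had -0.30. The A-type cyclin CYCA3;4 had 0.83 and did not pass.

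Protein phosphatases had 1 call among 8 probes in UV-B (12.5%, against 24.7% of all probes). AT3G63340, annotated as a type 2C phosphatase, had -1.92, -0.59 and -2.68 in UV-B, -0.51, -0.71 and -0.28 in UV-A and -0.31, 0.59 and 1.86 in blue light. It fell by 1.73 ± 0.43 (log2, adjusted p = 0.0128), with the light channel under 1.5 times background on 1 of the 3 UV-B arrays. The PP2A catalytic subunit PP2A-1 had -0.51 and -0.32 at its 2 probes, the PP2A regulator RCN1 0.11, and KAPP, a phosphatase that binds receptor kinases, -0.12. None of these passed, nor did AT5G53140 (-0.15), another type 2C phosphatase.

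The group annotated as other phosphatases had 10 calls among 22 probes, 1 rise and 9 falls (45.5%, against 24.7% of all probes), and all 9 falls were probes of AT1G04040. This symbol, an acid phosphatase in the annotation, had 11 probes, of which 9 fell, probe 2325 had 0.26 and probe 313 had -0.84 (adjusted p = 0.0786, or 0.0378 with the block). Probe 2679 fell most, with -3.23, -2.32 and -1.59 in UV-B against -0.05, 1.20 and 0.86 in blue light and 0.19, 1.42 and 1.23 in UV-A (-2.38 ± 0.37 SE, 5.21-fold lower, adjusted p = 0.00111). Probe 1921, the brightest, had -1.49, -1.25 and -1.20 in UV-B and fell by 1.31 ± 0.31 (log2, adjusted p = 0.00992).

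Other AT1G04040 probes varied more between the UV-B arrays. Probe 1228 had -3.35, -0.07 and -3.66, probe 1704 had -2.26, 0.38 and -3.45, probe 2462 had -2.67, 0.60 and -3.21, and probe 1630 had -2.02, 0.38 and -4.62. At each of these, UV-B replicate 2 lay near 0 and the others far below it. The light channel was under 1.5 times background on 2 of the 3 UV-B arrays at probe 1630 and on 1 at probe 1228. In UV-A the same 4 probes were negative on replicate 2 and positive on replicates 1 and 3, for example 1.05, -0.73 and 0.95 on replicates 1, 2 and 3 at probe 1228. Their means in UV-B were -2.36 to -1.76 with SEs of 0.57 to 0.69 (adjusted p = 0.0126 to 0.0486 in limma). These SEs and p-values rest on a spread shared by all lights. The probes' SDs were 1.96 to 2.50 in UV-B, 0.30 to 0.71 in blue light and 0.64 to 1.09 in UV-A. The SEs therefore understate the spread between the UV-B arrays at these probes. The probes were chosen for this pattern after their values were seen.

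**Figure D3:**
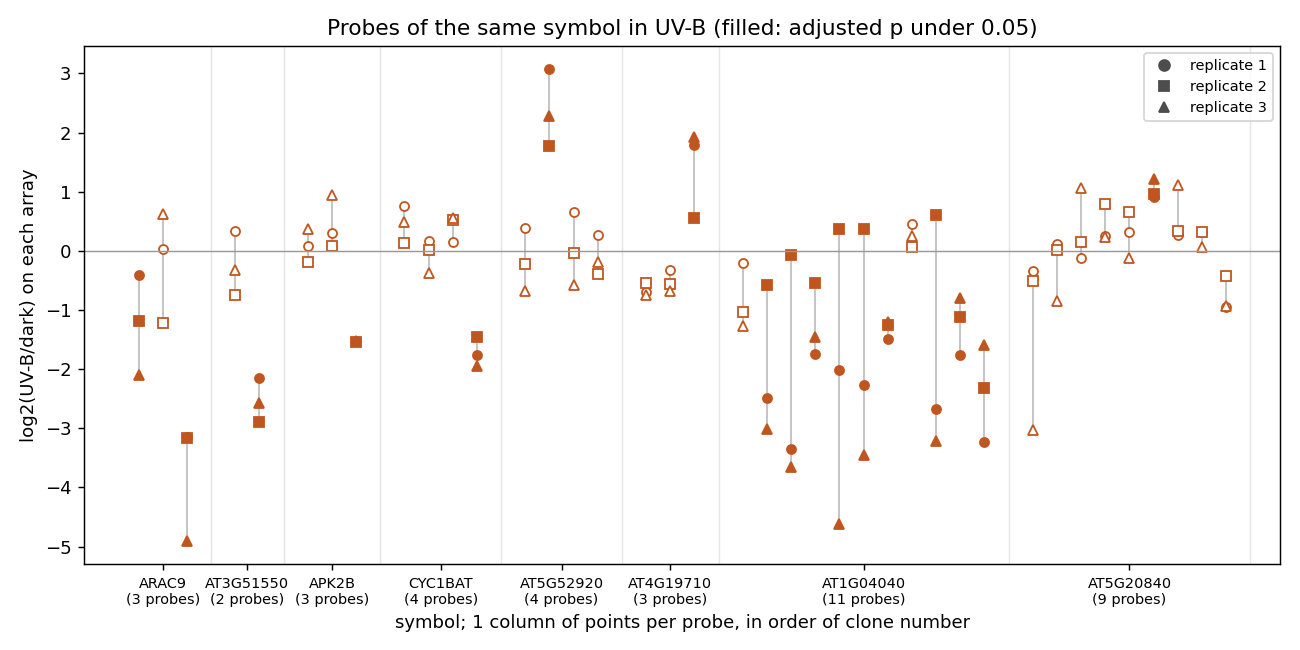
Log2(UV-B/dark) on each of the 3 UV-B arrays (y axis) for every probe of 8 symbols, 1 column of points per probe, joined by a line over its range. Filled points mark probes that passed in limma. At AT3G51550, APK2B, CYC1BAT and AT5G52920 a single probe passed, while 9 of the 11 AT1G04040 probes did.

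The single rise of this group was at 1 of 9 probes of AT5G20840, annotated as a phosphoinositide 5-phosphatase, an enzyme of lipid signals. Probe 1946 had 0.92, 0.96 and 1.21 in UV-B and rose by 1.03 ± 0.26 (adjusted p = 0.0142). The other 8 probes did not pass in UV-B. Probe 112 among them had its light channel under 1.5 times background on all 3 UV-B arrays and its dark channel on 1 of them. Its measured mean there was -1.29 (adjusted p = 0.0975, or 0.00401 with the block), and no bound is given, since both channels were dim on 1 array. AT5G44730, a phosphoglycolate phosphatase in the annotation, had 0.42 and 0.55 at its 2 probes.

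Calmodulin-binding proteins had 1 call among 7 probes in UV-B (14.3%, against 24.7% of all probes). AT1G08110, glyoxalase I, which removes methylglyoxal, had 1.94, 0.32 and 2.41 in UV-B and rose by 1.56 ± 0.39 (adjusted p = 0.0128). AT2G22300, CAMTA3 in Arabidopsis, a calmodulin-binding regulator of defence genes, had 0.48, -0.73 and 0.99, and GAD, the glutamate decarboxylase that makes GABA, had 0.09, -0.30 and 0.47. Neither passed, nor did ROF1, a prolyl isomerase (0.23), or the 3 probes of the IQ-domain gene AT5G03040 (-0.21 to 0.72). ROF1 was negative on 2 of 3 blue arrays (-1.12, 0.05 and -2.79) and passed there only with the block (mean -1.29, adjusted p = 0.111 without and 0.0291 with it).

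Kinases of metabolism passed at 6 of 24 probes in UV-B, with 4 rises and 2 falls (25%, close to the 24.7% of all probes). AT5G52920, a pyruvate kinase, which makes pyruvate in glycolysis, had the largest rise of all members at its probe 648, with 3.07, 1.77 and 2.28 in UV-B, -0.13, 0.54 and -1.12 in blue light and -0.51, -0.44 and -0.88 in UV-A. The UV-B arrays stood above all others, and the rise was 5.18-fold (2.37 ± 0.34 SE, adjusted p = 0.000648). The 3 other AT5G52920 probes had means of -0.17, 0.01 and -0.10 and did not pass. The pyruvate kinases AT3G22960 (0.05 and 0.17) and AT5G08570 (0.15) did not pass either.

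PGK, phosphoglycerate kinase, fell at both its probes, by 1.63 ± 0.40 at probe 1133 (-2.53, -0.38 and -1.99; adjusted p = 0.0113) and by 0.71 ± 0.24 at probe 2618 (-0.51, -0.57 and -1.06; adjusted p = 0.0499). The call at probe 2618 was kept under 7 of 19 alternatives and lost in the authors' values. AT4G19710, an aspartate kinase joined to homoserine dehydrogenase in amino acid synthesis, rose at probe 2127 by 1.42 ± 0.32 (1.79, 0.56 and 1.92; adjusted p = 0.00765), while its probes 758 and 1811 had -0.66 and -0.52, the first of which passed with the block (adjusted p = 0.04997). IPK2a, an inositol polyphosphate kinase, rose by 1.06 ± 0.34 at probe 2526 (adjusted p = 0.0400) and had -0.13 at probe 1624. ADK1, adenosine kinase, rose by 0.86 ± 0.28 (adjusted p = 0.0428). The galactokinase GAL1 (-0.85) and EMB1187 probe 1996 (0.90) passed only with the block (adjusted p = 0.0330 and 0.0175), and AKN2, AT2G31390, AT3G42850, AT3G54250 and AT3G55610 lay between -0.47 and 0.13.

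The GTPase names other than ARAC9 and the symbols drawn in by a wider wording gave 3 further calls. With ARAC9, 3 of 5 GTPase probes passed in UV-B, and 1 of 3 triphosphatase and 1 of 4 tubulin probes, against 24.7% of all probes. Of the GTPase calls, 2 were falls of ARAC9, which was added by name with its UV-B values known. The GTPase share is therefore only a description. SIRANBP, a Ran-binding protein, had 1.80, 1.81 and -0.08 and rose by 1.18 ± 0.38 (adjusted p = 0.0389), while AT5G11580, also annotated as Ran GTPase binding, had 0.47. CDC48, an ATPase that unfolds proteins, fell by 1.68 ± 0.29 (-1.91, -1.59 and -1.53; adjusted p = 0.00194). TUB2, a beta-tubulin, fell by 1.10 ± 0.30 at probe 2486 (adjusted p = 0.0194) and had -0.58 and -0.27 at its other probes, and TUB3 had -0.31. AT2G18330, an ATPase in the annotation, had 0.95 (adjusted p = 0.0681, or 0.0271 with the block), and AT1G56540 had 0.52.

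Another 8 probes carried names of genes of other organisms, for which no role in turnip is given here. Of these, yclJ fell by 2.29 ± 0.39 (-1.83, -1.51 and -3.54; log2, adjusted p = 0.00156) and MAP3K7IP2 by 1.79 ± 0.44 (-1.82, -0.51 and -3.04; adjusted p = 0.0121). The probes csnk1a1 (1.51 ± 0.32, adjusted p = 0.00534) and LOC702837 (1.47 ± 0.31, adjusted p = 0.00531) rose. ERBB3 (-1.34) passed only with the block (adjusted p = 0.0280), and KNDC1 (-0.18), LOC669066 (0.59) and Prkci (-0.21) did not pass.

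Blue light against darkness changed 4 of the 139 members (2.88%), all lower, where 3.47% of all probes passed, 1.12% higher and 2.35% lower. AT3G11410, PP2CA in Arabidopsis, a type 2C phosphatase of abscisic acid signalling, had -0.69, -1.03 and -1.80 at probe 1551 in blue light and fell by 1.17 ± 0.28 (log2, adjusted p = 0.0470). In UV-B the probe had -0.16, 0.54 and 0.11, and its other probe, 1112, had 0.16, 0.23 and 2.51 in blue light and did not pass. AT1G72710, a casein kinase I, fell by 1.34 ± 0.33 at probe 2047 (-0.93, -0.84 and -2.27; adjusted p = 0.0490) and had 0.26 and 0.13 at its other probes.

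At probe 112 of AT5G20840, with -1.41, -1.78 and -3.55 in blue light, the light channel was under 1.5 times background on all 3 arrays, so the fall has only a bound. Each array was given the higher of the probe's own signal and the lowest signal among probes over 1.5 times background. In these values the mean was then at least 3.35-fold lower than in darkness (measured mean -2.25, adjusted p = 0.0463). This bound leaves out the spread between arrays. In the authors' processed values the mean was -1.35 (adjusted p = 0.154 in limma), and the call was kept under 5 of 18 alternatives. All 9 arrays were negative at this probe. Prkci, a name of another organism, fell by 1.47 ± 0.36 (-0.71, -1.0 and -2.70; log2, adjusted p = 0.0494). In each of these 4, blue replicate 3 was the lowest array.

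With the replicate number as a block 17 members passed in blue light, 5 higher and 12 lower, where 16.1% of all probes passed, 6.7% higher and 9.41% lower. Those that were higher were APK1B, APK2B probe 2216 (0.96, adjusted p = 0.0430), ARAC9 probe 509 (1.27, adjusted p = 0.0214), AT2G31800 probe 2768 (0.86, adjusted p = 0.0389) and KAPP (1.22, adjusted p = 0.0353). None of the 4 calls was kept without blue replicate 3 or with median centring, where no member passed, and 28 and 12 had an unadjusted p under 0.05 with median centring and without that array. Each of the 4 was also lost when any other array except UV-B replicate 3 was left out, with print-tip loess and in the authors' values. Shares of all probes are not given for these fits.

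UV-A against darkness changed 1 of the 139 members (0.719%), where 3.19% of all probes passed, 1.12% higher and 2.07% lower. AT4G19710 fell by 1.15 ± 0.27 at probe 1811 (-0.78, -0.91 and -1.74; log2, adjusted p = 0.0456), with the light channel under 1.5 times background on 2 of the 3 arrays. Its probe 2127, which rose in UV-B, had 0.43, 0.57 and 0.18. With the block 11 members passed in UV-A, 4 higher and 7 lower, where 11.1% of all probes passed, 4.59% higher and 6.54% lower. With print-tip loess, which normalizes each block of the array by itself, 1 member passed and was higher, where 4.03% of all probes passed, 1.87% higher and 2.15% lower. Without any 1 UV-A array no member passed, and 17, 11 and 11 had an unadjusted p under 0.05 without replicates 1, 2 and 3. Shares of all probes without these arrays are not given.

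UV-A and blue light were not told apart at any member. No probe on the whole array passed (0%), and 2 of the 139 members had an unadjusted p under 0.05 in limma, AT1G66430, of the ribokinase family (UV-A minus blue 1.03 ± 0.47), and AT4G19710 probe 1811 (-0.90 ± 0.39). Over the whole array 80 of 2507 probes had such a p. The median SE of a member's difference was 0.45, which limits what could be detected.

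UV-B against blue light differed at 21 members (15.1%), 8 higher and 13 lower in UV-B, where 18.3% of all probes passed, 8.06% higher and 10.3% lower. This comparison and that with UV-A share the UV-B arrays. In the authors' processed values 25 passed, 13 higher and 12 lower, where 23.2% of all probes passed, 12.5% higher and 10.7% lower. With the block 33 members passed, 18 higher and 15 lower, where 28.8% of all probes passed, 13.2% higher and 15.6% lower. AT3G51550 probe 2725 was lower in UV-B (means -2.54 and 0.80, difference -3.34 ± 0.43, adjusted p = 0.000684), and AT5G52920 probe 648 higher by 2.61 ± 0.49 (means 2.37 and -0.23, adjusted p = 0.00537). CYC1BAT probe 2181 had a difference of -2.60 ± 0.50 (adjusted p = 0.00646) and APK2B probe 2216 of -2.49 ± 0.48 (adjusted p = 0.00645). In AT2G18330, which passed against darkness in neither light, the values were -0.11, -1.98 and -1.77 in blue light and 1.12, 0.48 and 1.25 in UV-B, a difference of 2.24 ± 0.49 (adjusted p = 0.0114). AT4G40010, a kinase of the SnRK2 family of osmotic stress and abscisic acid signalling, also passed here, at 1 of its 3 probes, without passing against darkness. Its probe 2323 had 0.19, 1.04 and 1.22 in blue light and -0.66, -0.03 and -1.37 in UV-B (difference -1.50 ± 0.46, adjusted p = 0.0420). The light channel of this probe was under 1.5 times background on 2 of the 3 UV-B arrays. The call was kept under 9 of 19 alternatives and lost in the authors' values. Probes 342 and 2558, the second the brightest, had means of 0.84 and 0.12 in blue light and 0.15 and 0.07 in UV-B and did not pass. The count was 12 without blue replicate 3, 10 without UV-B replicate 1, 11 without UV-B replicate 3 and 9 without the 3 arrays numbered 3, with the shares of all probes not given.

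**Figure D4:**
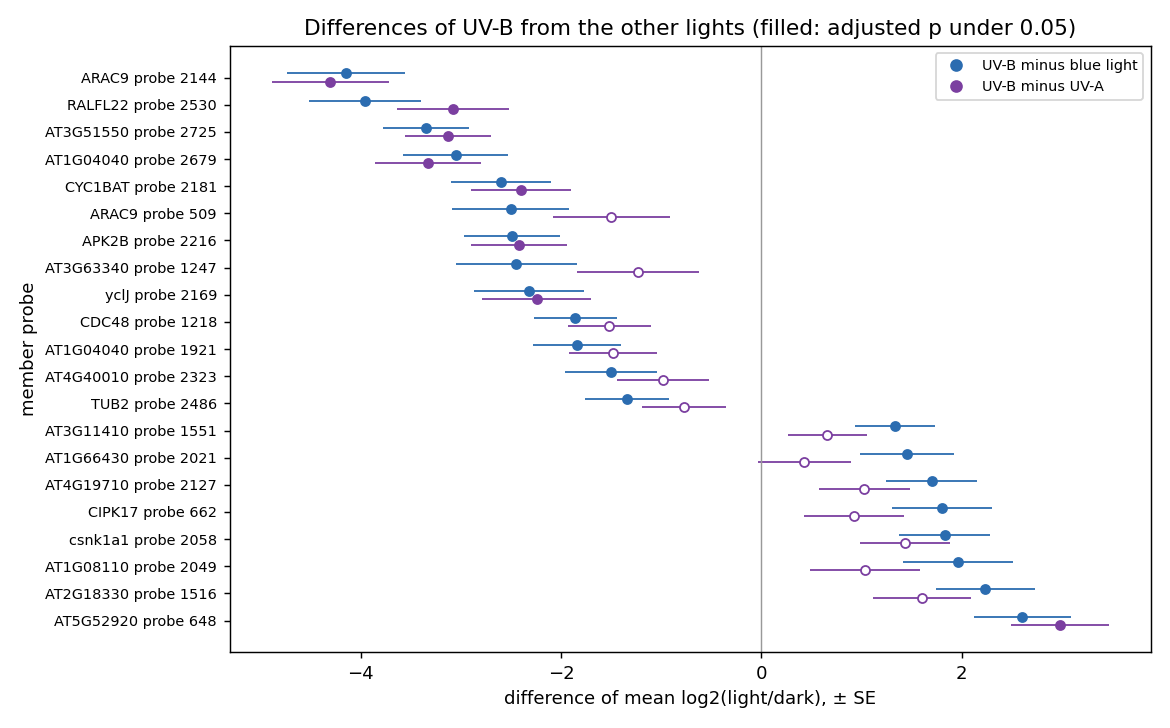
Difference of the mean log2(light/dark) of UV-B from that of blue light and of UV-A (x axis, ± SE) for the 21 member probes that passed in either comparison, with filled points for those that passed. ARAC9 probe 2144, RALFL22, AT3G51550 probe 2725 and AT1G04040 probe 2679 are lower in UV-B by over 3 in both.

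UV-B against UV-A differed at 8 members (5.76%), 1 higher and 7 lower in UV-B, where 6.62% of all probes passed, 2.03% higher and 4.59% lower. AT3G51550 probe 2725 was lower in UV-B (-3.13 ± 0.43, adjusted p = 0.00106), and so was AT1G04040 probe 2679 (-3.33 ± 0.53, adjusted p = 0.00281). AT5G52920 probe 648 was higher by 2.98 ± 0.49 (adjusted p = 0.00307). APK2B probe 2216 (-2.42 ± 0.48) and CYC1BAT probe 2181 (-2.40 ± 0.50) passed with adjusted p = 0.00953 and 0.0128. For RALFL22 and ARAC9 probe 2144 the differences were -3.07 and -4.30, given as a description, and the ARAC9 spot was saturated on 1 of the UV-A arrays. With the block 15 members passed, 3 higher and 12 lower, where 15.1% of all probes passed, 5.78% higher and 9.33% lower. Print-tip loess gave 3 higher and 10 lower, where 8.38% of all probes passed, 2.83% higher and 5.54% lower. The authors' values gave 3 higher and 8 lower, where 10.4% of all probes passed, 4.47% higher and 5.91% lower. The count was 5 without UV-A replicate 3 or without the 3 arrays numbered 3, and 15 without UV-B replicate 2, with the shares of all probes not given.

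Other names were picked by words alone, such as receptor, calcium, 14-3-3, annexin or GTP binding, which can take in genes outside signalling. This list comprised 61 probes of 40 symbols outside the set. Of these, 14 passed in UV-B against darkness (23%), 5 higher and 9 lower, against 24.7% of all probes. None passed in blue light or UV-A, where 3.47% and 3.19% of all probes did. An unadjusted p under 0.05 in limma was seen at 12 and 7 of the 61, against 632 and 512 of all 2507 probes. The median log2 of the 61 in UV-B was -0.06. GRF6, a 14-3-3 protein that binds phosphorylated partners, fell at 2 probes, by 1.76 ± 0.33 (adjusted p = 0.00289) and 0.95 ± 0.25 (adjusted p = 0.0168). TCH2, a calmodulin-like calcium sensor induced by touch, fell by 1.10 ± 0.34 (log2, adjusted p = 0.0357). LOC586703 fell at probes 2093, 327, 486 and 1376 (-2.15, -2.01, -1.77 and -1.39, adjusted p = 0.0230 to 0.0374). The remaining falls were LOC709208 (-1.68, adjusted p = 0.0402) and AT1G10630 (-1.13 ± 0.28, adjusted p = 0.0115). The small GTPase RAN-1 rose by 0.94 ± 0.31 (adjusted p = 0.0428) and AT2G45030, a GTP-binding elongation factor in the annotation, by 1.45 ± 0.27 (adjusted p = 0.00289). The remaining rises were IL6ST (1.48), AT1G76810 (1.00) and AT4G37870 (0.85).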

How the data were processed

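cDNA arrays with 2 dyes were read from the deposited text files, 1 per array, which hold foreground and background intensity values of both dyes on a linear scale, as the authors deposited them, and a score of 0 or 1 per spot, the weight, with its meaning not given in the sources used here. The 972 spots of weight 0 were left out. Labelling used a dendrimer kit, per the labels' protocols.

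Groups and replicates came from the sample titles, since the free text names blue light for every sample. Background was corrected with normexp (offset 50) and ratios were normalized by loess within each array (limma 3.58.1, R 4.3.3). Spots of a probe were averaged. Probes needed a foreground of 1.5 times background in at least 1 channel on at least 3 arrays, which removed none. Most spots without a clone were over this level in the light channel on the 3 arrays numbered 3, so the filter does not show detection. The 9 arrays were fitted together, with 1 coefficient for each light and a shared spread. Tests were two-sided, adjusted with Benjamini-Hochberg over 2507 probes, and the model was tested on simulated data. Figures used Python 3.11.15 with matplotlib 3.10.9.

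A second deposited table holds the authors' processed log2 ratios with unknown normalization. Its columns have medians of -0.165 to 0.047 (centring unknown), and they correlated at -0.963 to -0.854 with log2(light/dark) of the same array, so the sign was turned. It served as an alternative. The 3 dark-against-dark arrays of the design text are not analysed here.

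Same-numbered arrays of different lights deviated together from their group means (correlations over probes of 0.105 to 0.622 for the 9 pairs, and -0.625 to 0.0591 for the 18 others), so the numbers were read as pairing the samples. The fit with the number as a block takes the numbers as fixed, which tends to make its p-values against dark too small.

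Members and lists were chosen with earlier results of these data known. Named in full were up to 10 symbols per comparison by size of change among calls with all arrays on 1 side of 0 (or lights that did not overlap), and ARAC9 and RALFL22. Classes follow words of the names, refined by reading them: regulators, tubulins, triphosphatases and names of other organisms were set apart. By symbol, 1 of 87 matched the turnip gene table of assembly CAAS_Brap_v3.01, so no coordinates are given. Sequences of the clones were not used here. Alternatives were other background, normalization, weight and filter settings, the authors' values, the block and leaving out arrays; leaving out the 3 arrays numbered 3 together, or ARAC9 and RALFL22, was chosen after seeing the data.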

Additional observations from a re-analysis of the deposited data

Results flagged for a closer look

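Differences between lights at named members, each from limma's test of the difference itself, concern UV-B. Against blue light, UV-B was lower at ARAC9 probe 2144 (log2 difference -4.14), RALFL22 (-3.95), AT3G51550 probe 2725 (-3.34), AT1G04040 probe 2679 (-3.05), CYC1BAT probe 2181 (-2.60), APK2B probe 2216 (-2.49), AT3G63340 (-2.45) and yclJ (-2.32). It was higher at AT5G52920 probe 648 (2.61) and AT2G18330 (2.24). Against UV-A, UV-B was lower at ARAC9 probe 2144 (-4.30), AT1G04040 probe 2679 (-3.33), AT3G51550 probe 2725 (-3.13), RALFL22 (-3.07), APK2B probe 2216 (-2.42), CYC1BAT probe 2181 (-2.40) and yclJ (-2.24), and higher at AT5G52920 probe 648 (2.98). The values of ARAC9 and RALFL22 are a description, since both were added by name, and ARAC9 probe 2144 was saturated in the light channel on 1 blue and 1 UV-A array. The disagreement between probes of a symbol at AT3G51550, APK2B, CYC1BAT and AT5G52920 was not tested.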

How the results depend on the processing

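No call of a member changed direction under any alternative, and no member passed between UV-A and blue light under any of them. Kept under all alternatives run for the comparison were 10 of the 37 calls in UV-B, 8 of 21 in UV-B against blue light, 5 of 8 in UV-B against UV-A, 0 of 4 in blue light and 0 of 1 in UV-A. Without ARAC9 and RALFL22, chosen with their UV-B values known, these were 8 of 34, 6 of 18 and 3 of 6 for the comparisons with UV-B. The 10 in UV-B were APK2B probe 2216, ARAC9 probe 2144, AT1G04040 probe 2679, AT3G51550 probe 2725, AT5G52920 probe 648, CDC48, CIPK17, CYC1BAT probe 2181, RALFL22 and yclJ. In blue light 2 members passed with plain background subtraction, 0 with median centring, 1 with print-tip loess, 1 with spot weights ignored, 2 with a stricter filter and 1 in the authors' values. In UV-A 2 passed with plain subtraction, 0 with the stricter filter (20 at an unadjusted p under 0.05 in limma) and 2 in the authors' values. In UV-B against UV-A 13 passed with print-tip loess.

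With the replicate block the counts were 17 in blue light, 11 in UV-A, 33 in UV-B against blue light and 15 in UV-B against UV-A, and with the block on the authors' values they were 12, 13, 42 and 34. In UV-B against darkness 49 passed with the block, within 1.5 times the count without it. Every call made without the block was kept with it. Leaving out 1 array in turn gave 0 to 5 members in blue light, 0 to 5 in UV-A, 11 to 42 in UV-B, 10 to 24 in UV-B against blue light and 5 to 15 in UV-B against UV-A. Without the 3 arrays numbered 3 together, an alternative chosen after seeing the data, these counts were 0 (15 unadjusted), 0 (22 unadjusted), 22, 9 and 5. Where no share of all probes is given for an alternative, a change at the members and one over the whole array cannot be told apart. The cause of these changes was not tested. In UV-B, 41 members on replicate 1, 18 on replicate 2 and 2 on replicate 3 had a light channel under 1.5 times background.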
